A study of Mus musculus with 6 samples.

Results

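Of the genes of the BCL2 family, 10 were followed in RNA-seq of whole B16F10 tumors. These were the anti-apoptotic genes *Bcl2*, *Bcl2l1*, *Mcl1* and *Bcl2a1b*, the effector genes *Bax* and *Bak1*, and the BH3-only genes *Bid*, *Bcl2l11*, *Pmaip1* and *Bbc3*. Members were taken by exact gene symbol, and all 10 were found among the 21358 entries of the FPKM table. The tumors came from C57/BL6 mice that carried B16F10, a syngeneic melanoma line, under the skin. All mice were lymphodepleted by total body irradiation and, once the tumor had reached at least 150 mm3, received splenocytes of pmel-1 mice by adoptive cell transfer (ACT). The T cells of pmel-1 mice bear 1 transgenic receptor, against the melanoma antigen gp100, and had been activated in culture with gp100 peptide. In the ACT + IL-2 group, 3 mice were then given IL-2 on consecutive days of each cycle. In the ACT + NKTR-214 group, 3 mice were given NKTR-214, an IL-2 carrying releasable polyethylene glycol chains, once per cycle. Each mouse gave 1 library from its whole tumor at day 12 after treatment, with host and tumor cells mixed. Since both groups had ACT, they are called IL-2 tumors and NKTR-214 tumors below, and no tumor without ACT or without a cytokine is part of the comparison.

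BCL2 family proteins decide whether the outer membrane of the mitochondrion is breached, the step that commits a cell to intrinsic apoptosis. BAX and BAK1 form the pores. BCL2, BCL-xL (the product of *Bcl2l1*), MCL1 and the A1 proteins hold them in check, and BH3-only proteins such as BIM (*Bcl2l11*), NOXA (*Pmaip1*), PUMA (*Bbc3*) and BID either block the anti-apoptotic proteins or activate the pore formers. In T cells, cytokines that signal through the common gamma chain are known to raise BCL2, while BIM drives the death of cytokine-starved and previously activated T cells.

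In NKTR-214 tumors, 3 of the 4 anti-apoptotic genes (*Bcl2*, *Bcl2l1*, *Bcl2a1b*) and 2 of the 4 BH3-only genes (*Bcl2l11*, *Pmaip1*) were higher than in IL-2 tumors, and neither effector gene passed the test. The linear ratio of the group means ran from 1.97 for *Bcl2l1* to 6.21 for *Bcl2a1b* among the genes that rose. The test was limma's on log2(FPKM + 1), run on the 14172 genes whose mean reached 0.1 FPKM, at a Benjamini-Hochberg adjusted p under 0.05, and a log2 fold change (log2 change) is the difference of the group means on this scale, NKTR-214 minus IL-2. FPKM counts fragments relative to exon length and to the mapped fragments of the library, so levels of different genes can be set side by side. All 10 members were among the genes tested. Of them, 5 were higher, against 20.7% of all tested genes, and 0 were lower, against 8.28%. In either direction, 29.0% of all tested genes passed, and 71.5% of these calls were higher. Other scalings moved that balance, to 46.8% higher after 75th percentile scaling and 37.0% after quantile normalization, and 7 members were higher and 0 lower under both. Of all tested genes, 23.0% were higher and 26.2% lower after the first, and 18.8% and 32.1% after the second. The 5 members that rose did not pass in limma's fit without moderation of the variance (adjusted p = 0.0572 to 0.0733), where 0 members were called. At an unadjusted p under 0.05, 7 members were higher and 0 lower, against 26.2% and 13.2% of all tested genes. In 8 members every NKTR-214 tumor lay above every IL-2 tumor, against 27.1% of all tested genes. The median log2 fold change was 0.71 over the members and 0.05 over all tested genes. Bulk RNA cannot tell more cells that express a gene from more RNA per cell.

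**Figure D1:**
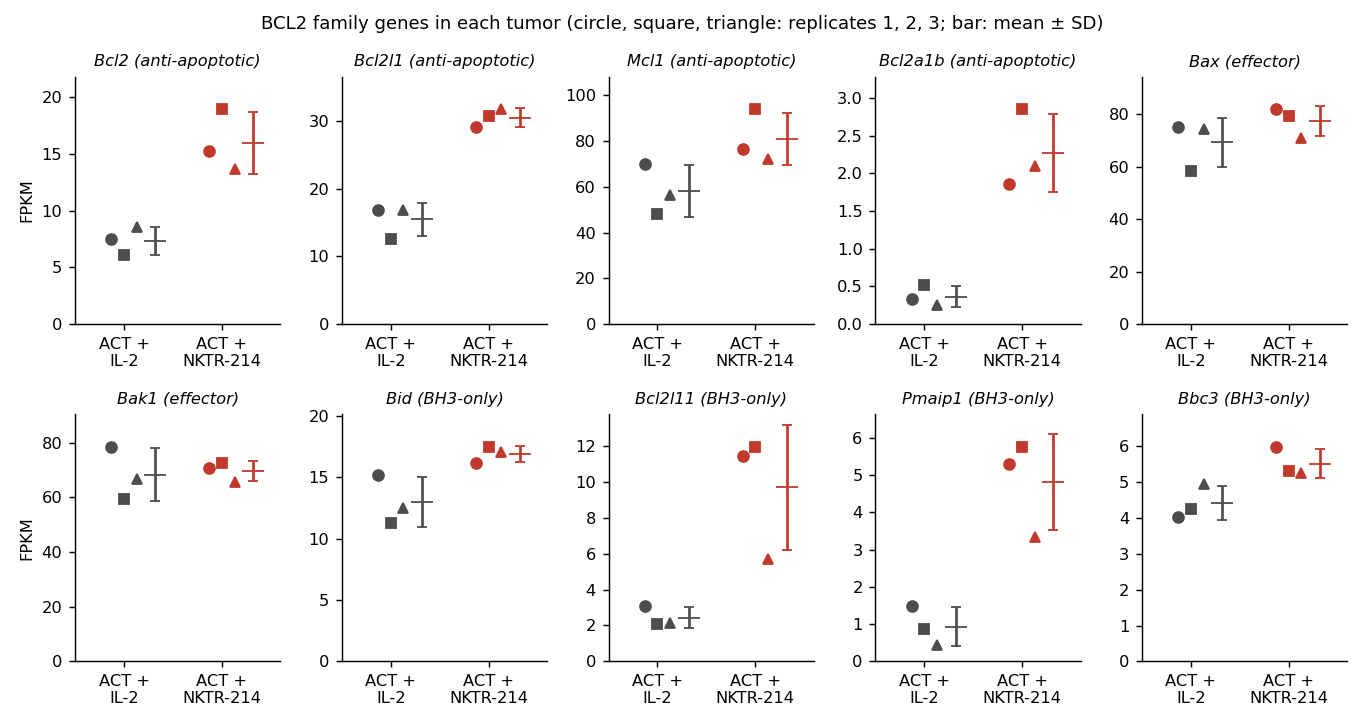
FPKM (linear axis from 0) of each BCL2 family gene in the 3 ACT + IL-2 tumors (grey) and the 3 ACT + NKTR-214 tumors (red), with the mean and SD beside the points. The groups do not overlap in 8 of the genes and do so in *Bax* and *Bak1*, and circles, squares and triangles mark replicates 1, 2 and 3.

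The FPKM values of single-exon genes with few reads fell on whole multiples of 1 read, for 90.8 to 93.1% of such genes per library. From the size of this step, the denominators of the libraries were 20900000 to 24600000 fragments. IL-2 replicate 2 stood apart in level. Its FPKM values summed to 176419.8, against 217581.4 to 246513.7 in the other libraries, and it was the lowest of the 3 IL-2 tumors in 80.1% of tested genes and in 7 of the 10 members. The tests of the 10 members and the counts of calls in the pathway lists were also run without it and after other scalings. NKTR-214 replicate 3 was the lowest of its group in 57.8% of tested genes and in 7 of the 10 members.

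*Bcl2* (chromosome 1, 106538178 to 106714274), the founding anti-apoptotic member, had 7.46, 6.08 and 8.55 FPKM in IL-2 tumors, listed here and below in the order of replicates 1, 2 and 3, and 15.3, 18.9 and 13.7 FPKM in NKTR-214 tumors. All 3 NKTR-214 tumors lay well above the highest IL-2 tumor. The means were 7.37 ± 1.24 and 15.97 ± 2.70 FPKM (SD, n = 3 each), a log2 change of 1.02 (SE 0.16, limma adjusted p = 0.000208). Exons of *D630008O14Rik* cover 6.09% of its exon bases.

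*Bcl2l1* (chromosome 2, 152780668 to 152831728) encodes BCL-xL, which like BCL2 binds and restrains the pore formers. Its values were tight in NKTR-214 tumors, at 29.1, 30.8 and 31.8 FPKM, against 16.9, 12.6 and 16.9 FPKM in IL-2 tumors. The means of 15.5 ± 2.45 and 30.5 ± 1.35 FPKM (SD, n = 3 each) gave a log2 change of 0.95 (SE 0.15, limma adjusted p = 0.000175). Without IL-2 replicate 2 the log2 change of *Bcl2l1* was 0.82, and this gene and *Bcl2* passed in all 6 fits that left out 1 tumor.

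*Bcl2a1b* encodes one of the mouse A1 proteins, short-lived anti-apoptotic proteins of hematopoietic cells. It lies in a cluster of near-identical copies on chromosome 9 (89199209 to 89207827), with *Bcl2a1a* at 88956900 to 88962419 and *Bcl2a1d* at 88723285 to 88731914. The first 120 coding bases of the 3 copies are shown because they bear on how their reads could be counted (GENCODE vM21 transcripts, GRCm38, 5′ to 3′ on the coding strand, with the positions where the copies differ in capitals).
Bcl2a1b: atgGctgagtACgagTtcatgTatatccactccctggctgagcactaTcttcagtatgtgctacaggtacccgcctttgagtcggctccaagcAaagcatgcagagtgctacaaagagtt
Bcl2a1a: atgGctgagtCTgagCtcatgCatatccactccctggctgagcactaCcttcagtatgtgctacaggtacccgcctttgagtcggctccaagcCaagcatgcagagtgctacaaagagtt
Bcl2a1d: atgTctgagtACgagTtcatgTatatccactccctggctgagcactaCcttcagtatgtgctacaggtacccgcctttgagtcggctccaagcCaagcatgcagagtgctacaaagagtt
Over the 516 coding bases before the stop codon, *Bcl2a1a* differed from *Bcl2a1b* at 11 positions and *Bcl2a1d* at 6. Long runs between these positions are the same in all 3 copies. Of the 50-base windows of the *Bcl2a1b* transcript, 79.2% also occur in another annotated gene, and exons of *Gm29094* cover 49.1% of its exon bases. The share was 69.0% for *Bcl2a1a* and 79.5% for *Bcl2a1d*. How reads that match several copies were treated is not given in the sources used here, so the level of each copy is uncertain.

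As deposited, *Bcl2a1b* had 0.329, 0.515 and 0.25 FPKM in IL-2 tumors and 1.86, 2.85 and 2.10 FPKM in NKTR-214 tumors. The lowest NKTR-214 tumor was over the highest IL-2 tumor by more than the range within either group. The smallest gene length that puts all 6 values on whole reads gave 6, 9 and 4 reads against 35, 53 and 38 reads, so that the IL-2 values rest on few reads. Its log2 change was 1.25 (SE 0.13, limma adjusted p = 4.78e-06) and, with 0.1 in place of 1 as pseudocount, 2.37. The near copies lay still lower. By the same count *Bcl2a1d* had 3, 1 and 2 reads against 11, 9 and 7 reads, and passed the test (log2 change 0.40, limma adjusted p = 0.00334). *Bcl2a1a* had 1, 2 and 2 reads against 6, 8 and 4 reads. Its log2 change of 0.26 (limma adjusted p = 0.0377) passed with 1 tumor left out only in the fit without NKTR-214 replicate 3, and its adjusted p was 0.0593 to 0.0965 without any one of the IL-2 tumors and 0.0821 and 0.201 without NKTR-214 replicates 1 and 2. *Bcl2a1a* also did not pass after quantile normalization (log2 change 0.13, adjusted p = 0.173) or without the intensity trend (limma adjusted p = 0.139). The summed FPKM of the 3 copies was 0.570 ± 0.0978 in IL-2 tumors and 3.04 ± 0.592 in NKTR-214 tumors (SD, n = 3 each). The sum differed between groups by 5.33 times, and *Bcl2a1b* alone by 6.21 times.

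*Mcl1* (chromosome 3, 95658788 to 95663176), whose short-lived protein is needed by most hematopoietic cells, was the most abundant anti-apoptotic member in both groups. It had 70.2, 47.96 and 56.2 FPKM in IL-2 tumors and 76.7, 93.8 and 72.1 FPKM in NKTR-214 tumors. The groups did not overlap, but the highest IL-2 tumor was within 2 FPKM of the lowest NKTR-214 tumor. Its log2 change of 0.48 (95% confidence interval 0.11 to 0.85) missed the threshold (limma adjusted p = 0.0521). *Mcl1* passed under both other scalings, with a smaller log2 fold change of 0.37 after 75th percentile scaling and 0.36 after quantile normalization (limma adjusted p = 0.0231 and 0.0192). In all it passed in 7 of 14 alternatives, among them those without IL-2 replicate 1 (adjusted p = 0.0059) and without NKTR-214 replicate 3 (adjusted p = 0.0333), and that with the replicate number as a block (limma adjusted p = 0.0372).

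**Figure D2:**
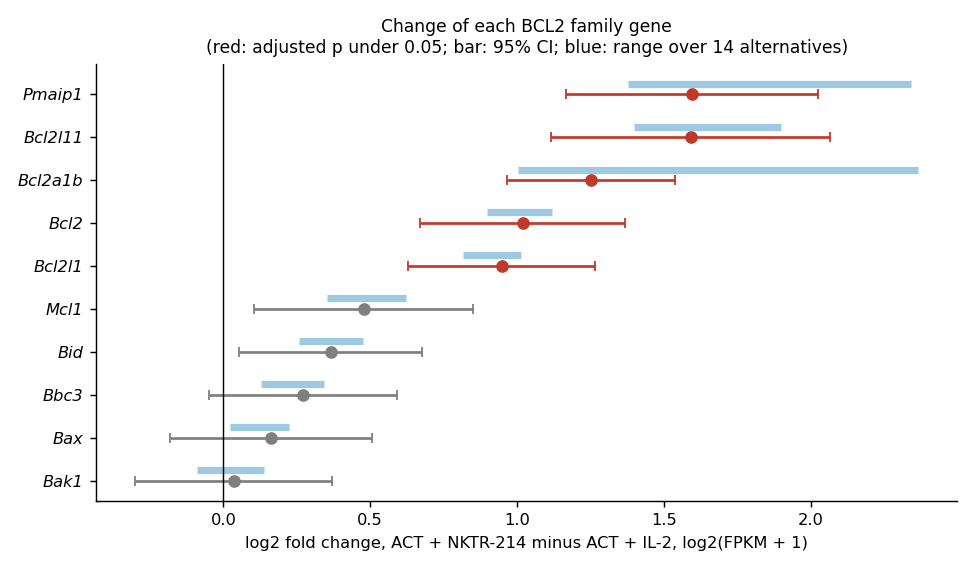
Log2 fold change of each BCL2 family gene, ACT + NKTR-214 minus ACT + IL-2, on the log2(FPKM + 1) scale, with its 95% confidence interval from limma (red where the adjusted p is under 0.05) and, in blue, the range of the estimate over 14 alternative settings. The estimates fall from 1.6 for *Pmaip1* to 0.03 for *Bak1*, and the blue range crosses 0 for *Bak1* alone.

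The pore formers were among the most abundant members, and neither passed the test. *Bax* (chromosome 7, 45461697 to 45466898) had 75.1, 58.4 and 74.4 FPKM in IL-2 tumors and 81.9, 79.3 and 70.9 FPKM in NKTR-214 tumors. The ranges overlapped, and the log2 change was 0.16 with a 95% confidence interval of -0.18 to 0.51 (limma adjusted p = 0.495). *Bak1* (chromosome 17, 27019810 to 27029009) had 78.6, 59.6 and 66.8 FPKM against 70.7, 72.5 and 65.6 FPKM. Its NKTR-214 values lay inside the IL-2 range, and the log2 change was 0.03 with an interval of -0.30 to 0.37 (limma adjusted p = 0.898). The sign for *Bak1* turned with scaling, to -0.07 after 75th percentile scaling and -0.09 after quantile normalization. Without IL-2 replicate 2 it was -0.06. *Bak1* shares 25.5% of its exon bases with *Ggnbp1*, and *Bax* shares 12.2% with *Gm45808*.

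Among the BH3-only genes, *Bcl2l11* (chromosome 2, 128126038 to 128162547), which encodes BIM, had 3.09, 2.07 and 2.13 FPKM in IL-2 tumors and 11.4, 11.9 and 5.68 FPKM in NKTR-214 tumors. The groups were apart, although NKTR-214 replicate 3 was nearer to the highest IL-2 tumor than to the other tumors of its own group. The means of 2.43 ± 0.572 and 9.68 ± 3.48 FPKM (SD, n = 3 each) gave a log2 change of 1.59 (SE 0.22, limma adjusted p = 6.19e-05). *Pmaip1*, which encodes the MCL1- and A1-binding protein NOXA, had 1.49, 0.857 and 0.451 FPKM in IL-2 tumors and 5.31, 5.76 and 3.34 FPKM in NKTR-214 tumors. NKTR-214 replicate 3 was again the lowest tumor of its group and still above every IL-2 tumor. The smallest length that fits whole reads gave 94, 52 and 25 reads against 347, 372 and 210. Its log2 change was 1.6 (SE 0.20, limma adjusted p = 2.31e-05), the largest of the members in the main fit by a margin far below its error. Both genes passed in all 6 fits that left out 1 tumor, with log2 fold changes of 1.42 to 1.90 for *Bcl2l11* and 1.41 to 1.80 for *Pmaip1*. Which member changed most depended on the setting. With 0.1 as pseudocount the log2 change of *Bcl2a1b* (2.37) was above that of *Pmaip1* (2.34). That of *Bcl2l11* was above that of *Pmaip1* after quantile normalization (1.40 and 1.38) and without replicate 3 of either group.

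*Bid* (chromosome 6, 120891930 to 120916853), whose protein links death receptors to the mitochondrion once a caspase has cut it, had 15.2, 11.3 and 12.5 FPKM in IL-2 tumors and 16.2, 17.5 and 17.1 FPKM in NKTR-214 tumors. The groups did not overlap, with the nearest tumors about 1 FPKM apart. Its log2 change of 0.36 (95% confidence interval 0.05 to 0.68) missed the threshold (limma adjusted p = 0.0764) and passed it after 75th percentile scaling (0.26, adjusted p = 0.0372), after quantile normalization (0.26, adjusted p = 0.039) and without IL-2 replicate 1 (0.48, limma adjusted p = 0.0346). *Bid* shares 17.7% of its exon bases with *Bcl2l13*, a neighbour on the opposite strand. *Bbc3* (chromosome 7, 16308393 to 16318205) encodes PUMA, a p53 target. It had 4.03, 4.25 and 4.94 FPKM in IL-2 tumors and 5.99, 5.32 and 5.25 FPKM in NKTR-214 tumors. The groups lay side by side without overlap, and the log2 change of 0.27 (95% confidence interval -0.05 to 0.59) did not pass (limma adjusted p = 0.196) under the reported setting or any of the 14 alternatives.

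Promoter windows (250 bases before to 50 after a start site) were at hand from RefSeq (GRCm38.p6) for 9 of the 10 members, with 14 windows in all. The windows below are shown because *Bcl2l11* and *Bcl2l1* rose and hold a motif of a factor known for acting on BCL2 family genes. Capitals mark the motif, and both windows run 5′ to 3′ on the strand of the gene. The first, chr2:128125788-128126087 on the plus strand, is 1 of 2 windows of *Bcl2l11* and holds the FOXO motif TGTTTAC on the opposite strand, starting 227 bases before the start site.
Bcl2l11: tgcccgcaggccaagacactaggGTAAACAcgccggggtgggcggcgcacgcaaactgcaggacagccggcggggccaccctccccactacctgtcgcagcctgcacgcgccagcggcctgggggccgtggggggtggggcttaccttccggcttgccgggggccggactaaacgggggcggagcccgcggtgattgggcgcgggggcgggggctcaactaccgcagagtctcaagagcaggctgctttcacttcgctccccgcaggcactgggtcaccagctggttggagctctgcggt
The second, chr2:152830668-152830967 on the minus strand, is 1 of 3 windows of *Bcl2l1* and holds a κB motif of NF-κB starting 242 bases before the start site.
Bcl2l1: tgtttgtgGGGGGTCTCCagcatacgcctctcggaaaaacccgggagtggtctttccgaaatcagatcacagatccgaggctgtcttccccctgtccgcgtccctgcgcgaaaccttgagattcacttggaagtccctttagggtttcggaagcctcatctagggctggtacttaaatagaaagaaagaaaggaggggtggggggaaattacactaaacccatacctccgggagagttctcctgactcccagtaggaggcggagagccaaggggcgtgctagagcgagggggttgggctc
Both strands were searched. FOXO motifs were in 2 of the 14 member windows and in 3.65% of all 32851 windows, and κB motifs in 2 and 4.505%. The STAT motif TTCNNNGAA was in 0 member windows and 8.298% of all windows, the p53 half-site in 1 and 8.356%, the E-box CACGTG in 2 and 7.15%, and the cyclic AMP response element TGACGTCA in 0 and 1.79%. The other member windows with a match were those of *Bbc3* (κB, FOXO and E-box) and *Bax* (p53 half-site and E-box). The capitals of both windows above overlap no other motif searched. A match describes the letters of a window and shows no binding.

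In the order of levels, *Bax* (69.3 FPKM), *Bak1* (68.3) and *Mcl1* (58.1) led in IL-2 tumors, with overlapping tumors between neighbours. *Bcl2l1* and *Bid* followed, overlapping each other, and then *Bcl2*, *Bbc3* and *Bcl2l11*, each apart from the next. In NKTR-214 tumors the same 3 genes led, with *Mcl1* first (80.9 FPKM) and again no separation from its neighbour. *Bcl2* reached the range of *Bid*, and *Bcl2l11* moved above *Bbc3*, with overlapping tumors in both pairs. The summed level of the 4 anti-apoptotic genes was 81.3 ± 13.8 FPKM in IL-2 tumors and 129.7 ± 14.6 FPKM in NKTR-214 tumors, that of the 4 BH3-only genes 20.8 ± 2.77 and 36.9 ± 4.92 FPKM, and that of the effectors 137.6 ± 18.1 and 147.0 ± 9.11 FPKM (SD, n = 3 each). *Mcl1*, which missed the threshold, made up 58.1 and 80.9 FPKM of the anti-apoptotic sums.

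A ratio of 2 genes within a tumor does not change when the library is multiplied by a constant. The log2 ratio of *Bcl2l11* to *Bcl2* was -1.27, -1.56 and -2.0 in IL-2 tumors and -0.42, -0.66 and -1.27 in NKTR-214 tumors. The groups touched, since NKTR-214 replicate 3 (-1.267) lay only just above IL-2 replicate 1 (-1.272). The difference in means was 0.83 (p = 0.1 by a two-sided exact permutation test, the lowest value that 3 against 3 tumors allow). The log2 ratio of *Bax* to *Bcl2* was 3.33, 3.26 and 3.12 in IL-2 tumors and 2.42, 2.07 and 2.37 in NKTR-214 tumors. Here the groups were far apart, with a difference of -0.95 (p = 0.1 by the same exact test). Every NKTR-214 tumor thus had a lower ratio of *Bax* to *Bcl2* RNA than any IL-2 tumor. *Bcl2* alone had a log2 change of 1.02 and *Bax* one of 0.16, so this ratio is no separate result from the rise of *Bcl2*. In a whole tumor the RNA of the 2 genes need not come from the same cells.

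**Figure D3:**
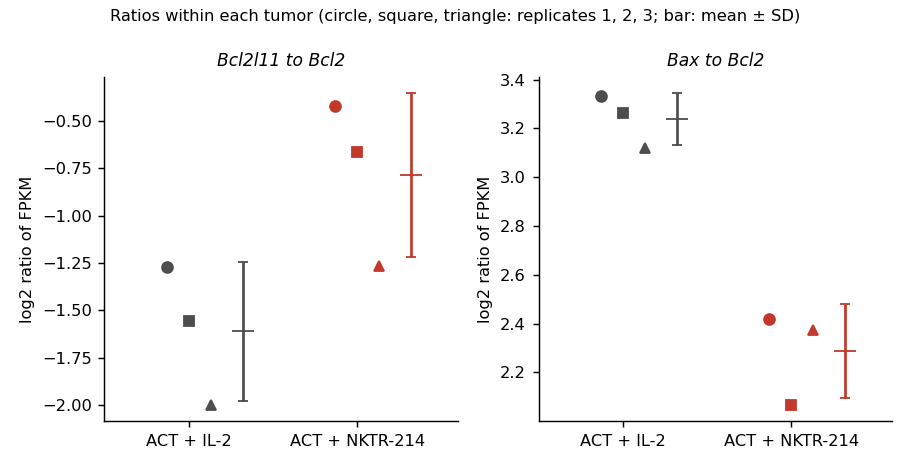
Log2 ratio of FPKM within each tumor for *Bcl2l11* to *Bcl2* (left) and *Bax* to *Bcl2* (right), on axes that do not start at 0, with the mean and SD beside the 3 points of each group. The left groups nearly meet at -1.27, and on the right the ACT + NKTR-214 tumors lie at 2.07 to 2.42, all below the ACT + IL-2 tumors at 3.12 to 3.33.

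Of 16 further BCL2 family genes, 12 were tested, 4 were higher, 1 was lower and 7 did not pass, with a median log2 fold change of 0.12. Over all tested genes the shares were 20.7% higher and 8.28% lower. The 4 below the minimum level were *Bcl2a1c*, *Bcl2l10*, *Bcl2l15* and *Hrk*. *Bmf*, a BH3-only gene, had 1.55, 1.01 and 1.33 FPKM in IL-2 tumors and 1.92, 2.21 and 2.43 FPKM in NKTR-214 tumors. Its log2 change of 0.48 (limma adjusted p = 0.0161) did not pass without IL-2 replicate 2 (adjusted p = 0.0551) or after quantile normalization (adjusted p = 0.184). The gene that fell was *Bcl2l13*, which encodes a mitochondrial membrane protein of the family. It had 12.1, 9.97 and 11.9 FPKM in IL-2 tumors and 8.99, 7.25 and 7.72 FPKM in NKTR-214 tumors, a log2 change of -0.45 (limma adjusted p = 0.0315). *Bcl2l13* did not pass without IL-2 replicates 1 or 3 (adjusted p = 0.0922 and 0.117) or without NKTR-214 replicates 2 or 3 (adjusted p = 0.169 and 0.0762). The other 3 that rose, *Bik*, *Bcl2a1a* and *Bcl2a1d*, had under 1 FPKM in every tumor.

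Downstream of the pores, 23 genes of the apoptosome, the caspases, the mitochondrial death factors and the inhibitor of apoptosis (IAP) proteins were tested. Of these, 7 were higher (20.7% of all tested genes), 2 were lower (8.28% of all tested genes) and 14 did not pass, and the median log2 fold change was 0.13. The lower genes numbered 6 after 75th percentile scaling and 7 after quantile normalization, where 26.2% and 32.1% of all tested genes were lower. The IAP gene *Birc3*, an NF-κB target whose protein is a ubiquitin ligase of TNF receptor signaling, had 5.58, 3.04 and 3.03 FPKM in IL-2 tumors and 11.5, 13.7 and 8.51 FPKM in NKTR-214 tumors, a log2 change of 1.34 (limma adjusted p = 0.000149). The log2 change was 0.69 for its relative *Birc2* (limma adjusted p = 0.00332). Those of *Naip2* and *Naip5*, family members by sequence whose proteins sense bacterial ligands in myeloid cells, were 1.27 and 0.83 (limma adjusted p = 8.94e-05 and 0.000317). *Naip2* and *Naip5* share 19.1% and 36.9% of their 50-base windows with other genes, mainly other *Naip* copies. These 4 genes passed in all 6 fits that left out 1 tumor. *Dffb*, the caspase-activated nuclease, rose by 0.51, while *Vdac1*, an outer membrane channel, fell by 0.55 and *Aifm1*, a respiratory chain and death factor, fell by 0.498 on the log2 scale (limma adjusted p = 0.0225, 0.035 and 0.0215). Each of these 3 passed in 2 of the 6 fits that left out 1 tumor, with log2 changes in the 6 fits of 0.44 to 0.64 for *Dffb*, -0.70 to -0.45 for *Vdac1* and -0.60 to -0.42 for *Aifm1*. *Dffb* did not pass without IL-2 replicate 2 (adjusted p = 0.104), IL-2 replicate 3 (0.0808), NKTR-214 replicate 1 (0.063) or NKTR-214 replicate 2 (0.059), nor after quantile normalization (log2 change 0.21, adjusted p = 0.151) or with no minimum level (adjusted p = 0.074). *Vdac1* did not pass without IL-2 replicate 3 (adjusted p = 0.185) or without NKTR-214 replicates 1, 2 or 3 (0.0534, 0.178 and 0.0606), nor with no minimum level (0.0715). *Aifm1* did not pass without IL-2 replicates 1 or 3 (adjusted p = 0.0678 and 0.0671) or without NKTR-214 replicates 2 or 3 (0.0706 and 0.0876). The core apoptosome genes *Apaf1* and *Casp9* did not pass (log2 fold changes of -0.20 and 0.08, limma adjusted p = 0.35 and 0.733).

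Of 20 genes known to regulate BCL2 family genes or proteins, 9 were higher and 0 were lower (20.7% and 8.28% of all tested genes), 12 and 0 at an unadjusted p under 0.05 from limma (26.2% and 13.2% of all tested genes), with a median log2 fold change of 0.38, and 2 were lower under each of the other scalings. *Pim1*, a kinase induced by STAT5 that phosphorylates the BH3-only protein BAD, rose most among those with a mean of at least 1 FPKM. It had 16.6, 9.56 and 10.3 FPKM in IL-2 tumors and 46.8, 55.1 and 39.6 FPKM in NKTR-214 tumors, a log2 change of 1.90 (limma adjusted p = 2.34e-06). The genes *Stat5a* and *Stat5b* themselves did not pass (0.17 and 0.06, limma adjusted p = 0.45 and 0.821). The NF-κB genes *Relb*, *Nfkb1* and *Rela*, which act upstream of *Bcl2a1* genes and *Bcl2l1*, rose by 0.88, 0.79 and 0.62 (limma adjusted p = 0.00166, 0.0014 and 0.0081). *Ddit3* and *Atf3*, stress-response factors, rose by 0.82 and 0.72 (limma adjusted p = 0.00316 and 0.00521). The p53 target *Cdkn1a* rose by 0.79 (adjusted p = 0.00211), and *Trp53* itself had 38.7 ± 4.33 and 40.7 ± 3.91 FPKM (SD, n = 3 each, limma adjusted p = 0.766). *Foxo1*, a FOXO factor, rose by 0.61 (limma adjusted p = 0.0118), but not past the threshold without IL-2 replicate 2 (0.0513) or NKTR-214 replicate 1 (0.0523). *Foxo3*, the FOXO factor best known for inducing *Bcl2l11*, had a log2 fold change of -0.22 (limma adjusted p = 0.325).

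**Figure D4:**
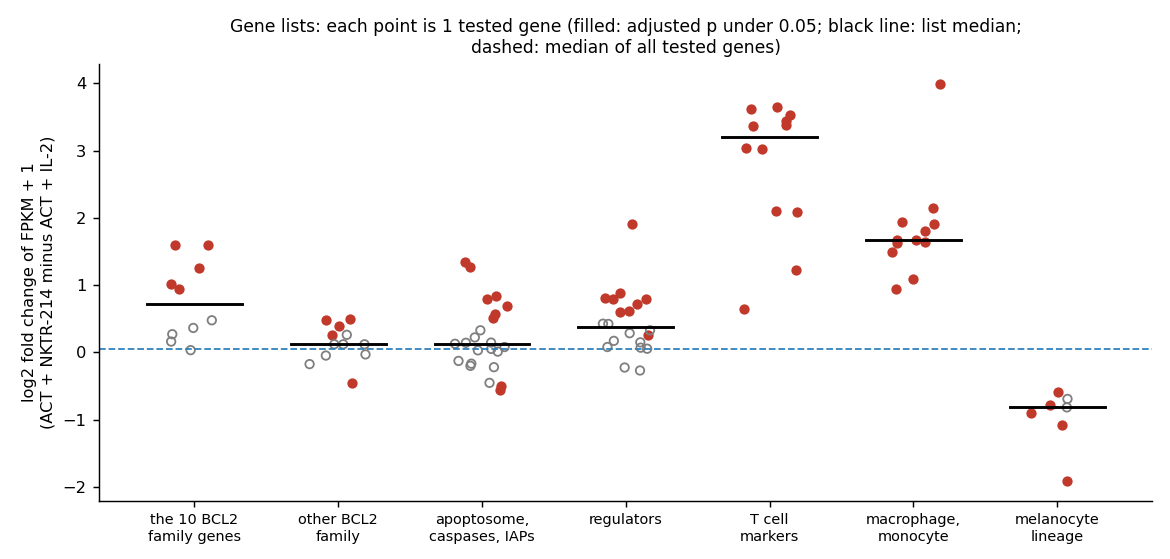
Log2 fold change of every tested gene in 7 lists, ACT + NKTR-214 minus ACT + IL-2 on the log2(FPKM + 1) scale, filled where the adjusted p from limma is under 0.05, with the list median in black and the median of all tested genes dashed. The 10 BCL2 family genes have a median of 0.71, between 0.13 for the caspase and IAP list and 1.67 for macrophage and monocyte markers, with T cell markers at 3.21 and melanocyte lineage genes at -0.82.

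Markers of the cells that a tumor can hold moved with these genes. All 12 tested T cell markers were higher, and the other 3 of the list of 15, the constant genes of the receptor, were not analysed here. Their summed level was 38.1, 19.5 and 17.6 FPKM in IL-2 tumors and 360.1, 406.8 and 189.9 FPKM in NKTR-214 tumors, so that replicate 3, the tumor with least *Bcl2l11* and *Pmaip1* in its group, also had the least T cell marker RNA. It was the lowest of its group in the macrophage, NK cell, dendritic cell and endothelial sums as well. All 12 macrophage and monocyte markers were higher, with summed levels of 284 to 819 FPKM in IL-2 tumors and 1159 to 2030 FPKM in NKTR-214 tumors. Among neutrophil markers 6 of 8 tested were higher (4.84 to 11.3 and 28.9 to 68.6 FPKM summed), and the lineage-defining *Ly6g* was listed at 0 in 5 of 6 tumors. NK cell markers were higher in 3 of 5 (0.936 to 3.06 and 8.63 to 19.3 FPKM), dendritic cell markers in 4 of 5 (3.66 to 6.59 and 6.64 to 16.2 FPKM), fibroblast markers in 6 of 7 (220 to 652 and 586 to 1171 FPKM) and endothelial markers in 1 of 6 (27.2 to 55.0 and 39.8 to 77.5 FPKM). The NK cell sum rose mainly through *Klre1* (means of 0.549 and 9.81 FPKM) and *Klrb1c* (0.418 and 3.69 FPKM). *Ncr1* (0.582 and 0.672 FPKM) and *Klra8* (0.122 and 0.127 FPKM) did not pass (limma adjusted p = 0.799 and 0.977). B cell markers were near 0, with *Ms4a1* below the minimum level, and neither of the 2 tested passed, with none at an unadjusted p under 0.05 from limma (0.974 to 2.08 and 0.986 to 1.58 FPKM). Melanocyte lineage genes, which mark the tumor cells, fell in 5 of 7, from sums of 5413 to 6933 FPKM to 2664 to 3763 FPKM, and the groups did not overlap in any of the 7. No tested marker was at 0 in all 6 tumors. The part of these marker levels in the changes of BCL2 family genes was not tested.

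The genes whose course over the 6 tumors was most like that of *Pmaip1* were sought among 11558 genes with a mean of at least 1 FPKM, by the Euclidean distance between log2(FPKM + 1) values centred on each gene's mean. *Nfkbid*, which encodes a nuclear IκB protein, was nearest (distance 0.10), with 1.37, 0.672 and 0.403 FPKM in IL-2 tumors and 5.07, 5.48 and 2.95 FPKM in NKTR-214 tumors. *Gatm* (0.15) and *Selp* (0.17) followed.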

How the data were processed

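RNA-seq libraries of 6 whole tumors, 3 per group, were used. Single-end reads of 50 bases were aligned to GRCm38 by the authors (HISAT2 2.0.4), counted by gene (HTSeq) and deposited as linear FPKM, with a column for every tumor. The annotation and strand setting are not given in the sources used here. Tumors were grouped by labelled treatment, and each mouse gave 1 tumor, so p-values rest on the spread between mice. In the moderated limma fits, the spread of a gene is estimated partly from that of other genes.

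The comparison used limma 3.58.1 in R 4.3.3 (eBayes with an intensity trend, no block) on log2(FPKM + 1) for the 14172 genes with a mean of at least 0.1 FPKM, with Benjamini-Hochberg adjustment over all of them. This scale understates changes of low genes. Read steps were sought in 802 single-exon genes (tolerance 0.1 read) and in low genes (0.03 read), and read numbers carry counting error only. Positions, transcripts and overlaps are from GENCODE vM21 (GRCm38) and promoters from RefSeq.

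Every member was named, and in each pathway list up to 8 genes past the threshold with a mean of at least 1 FPKM and no overlap between groups. Chosen after their values were seen were *Bik*, *Bcl2a1a*, *Bcl2a1d*, *Apaf1*, *Casp9*, *Stat5a*, *Stat5b*, *Trp53* and *Foxo3*. The members and gene lists were chosen with earlier results of these data known. Other settings tried were 0.1 as pseudocount, minimum means of 1 FPKM and 0, scaling to the 75th percentile, quantile normalization, a fit with no trend, a fit with unmoderated variance, a replicate block, and each tumor left out in turn. Scripts ran in Python 3.11.15. Results for some genes of the lists are not reported here.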

Additional observations from a re-analysis of the deposited data

How the results depend on the processing

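Among the 5 genes that rose, each passed the threshold in 13 of 14 alternatives. The exception was the fit without moderation of the variance, where 0 members were called higher (7 at an unadjusted p under 0.05) with adjusted p-values in limma's fit of 0.0572 to 0.0733 for these 5 genes. The same fit called 0 higher and 0 lower further BCL2 family genes, 0 and 0 apoptosome, caspase and IAP genes, 1 higher regulator gene, and 101 higher and 27 lower genes in all. Quantile normalization moved the median of all tested genes by -0.15 and 75th percentile scaling by -0.07. With the 75th percentile, 3709 genes were lower in all, against 1173, and 6 apoptosome, caspase and IAP genes and 2 regulators were lower. With quantile normalization these counts were 4549, 7 and 2, and 2 further BCL2 family genes were higher. The share of calls that were higher was 71.5% as reported, 46.8% with the 75th percentile and 37.0% with quantile normalization. A minimum mean of 1 FPKM left 1 further BCL2 family gene called higher, since fewer low genes were tested, and with no minimum 1 apoptosome, caspase or IAP gene was lower. The cause of the other shifts was not tested.

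With 1 tumor left out, 5 to 7 members were higher and 0 lower. The further BCL2 family genes numbered 2 to 4 higher and 0 to 1 lower, the apoptosome, caspase and IAP genes 6 to 7 higher and 0 to 2 lower, the regulators 7 to 10 higher and 0 to 1 lower, and all genes 2005 to 3476 higher and 636 to 1996 lower. The lower genes in all numbered 1996 without IL-2 replicate 2, 636 without IL-2 replicate 3 and 680 without NKTR-214 replicate 2. *Bak1* changed sign after 75th percentile scaling (-0.0731), after quantile normalization (-0.0905) and without IL-2 replicate 2 (-0.0582), and its log2 change reached 0.1387 with another tumor left out. The difference in the log2 ratio of *Bcl2l11* to *Bcl2* stayed between 0.57 and 1.07 and that of *Bax* to *Bcl2* between -1.02 and -0.84 over the other pseudocounts, the 6 sets that left out 1 tumor and the block. Quantile normalization was not run for the ratios. The exact p for the first was 0.2 with a pseudocount of 1 or 0.1 and in 5 of the 6 sets that left out 1 tumor, and that for the second was 0.1 in each of these.

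The replicate numbers belong to different mice. Deviations from the group means correlated at -0.206, -0.067 and 0.396 for tumors with the numbers 1, 2 and 3, so the numbers were not taken to pair the tumors. With the replicate number as a block, 6 members were higher, since *Mcl1* also passed, and 3090 genes were higher and 1227 lower in all. Under the block the differences of the log2 ratios were the same, 0.83 and -0.95 (exact paired permutation test, p = 0.25 for both, the smallest that 3 pairs allow).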
